A study of Mus musculus with 26 samples.

Results

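The genes described here move cholesterol out of cells and through the lysosome. They are the 10 genes Abca1, Abcg1, Apoe, Lpl, Nr1h3, Ch25h, Soat1, Npc1, Npc2 and Lipa, taken by name out of 39179 gene entries in the count tables. All 10 were found, and all 10 were among the 16325 genes that passed the filter on low counts. RNA came from the cortex of C57BL/6J mice, an inbred strain with no added allele or transgene in the labels, 3 days after an experimental focal stroke or a sham operation. The tissue of stroke mice held the core of the injury and a rim of the cortex around it. Mice had eaten a diet with 60% of its calories from fat (high-fat) or one with 6% (control), and the 26 libraries fell into 6 groups. These were stroke after 15 weeks on the high-fat diet (n = 6) or the control diet (n = 4), stroke after 6 weeks on the high-fat diet (n = 6) or the control diet (n = 4), and sham surgery after 6 weeks on the high-fat diet (n = 3) or the control diet (n = 3). No 15-week sham group was analysed here. Whether each library is a separate mouse is not in the labels, so a p-value here reads only the spread from library to library. They give no age, sex, body weight or batch either.

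Cholesterol taken up by a cell with lipoproteins or with debris is freed from its ester in the lysosome by the acid lipase Lipa, then handed by Npc2 to the membrane protein Npc1 and passed on to the rest of the cell. It can be stored again as an ester by Soat1, hydroxylated by Ch25h, or exported by the transporters Abca1 and Abcg1 onto apolipoprotein E, the main lipid carrier of the brain, which astrocytes and activated microglia secrete. Oxysterols activate the liver X receptor encoded by Nr1h3, and Abca1, Abcg1, Apoe and Lpl are textbook targets of this receptor. In injured brain, phagocytes clear myelin, a membrane rich in cholesterol, so the pathway is studied in stroke and demyelination.

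Promoter windows are shown for Abca1, Ch25h, Npc2 and Lipa, which were among the members with the largest log2 fold changes after stroke on the high-fat diet. Each window runs from 250 bases before to 50 bases after a gene start in RefSeq on GRCm38.p6, is 300 bases long, and reads 5′ to 3′ on the gene's strand, which is the minus strand for these genes. The Abca1 window is chr4:53159846-53160145, that of Ch25h is chr19:34475099-34475398, that of Npc2 is chr12:84773063-84773362 and that of Lipa is chr19:34527425-34527724. Capitals mark a DR4 element in Abca1 (the class of repeat bound by liver X receptors, searched as NGGTNA and NGGTCA with 4 bases between them), a cAMP response element in Ch25h (TGACGTCA), and CCAAT boxes (CCAAT) in Npc2 and Lipa, all searched on both strands.
Abca1: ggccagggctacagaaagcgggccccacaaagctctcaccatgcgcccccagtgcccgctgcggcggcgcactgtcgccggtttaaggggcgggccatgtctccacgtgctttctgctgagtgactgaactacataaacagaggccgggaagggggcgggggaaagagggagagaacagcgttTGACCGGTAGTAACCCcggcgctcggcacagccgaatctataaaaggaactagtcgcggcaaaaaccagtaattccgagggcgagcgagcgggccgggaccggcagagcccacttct
Ch25h: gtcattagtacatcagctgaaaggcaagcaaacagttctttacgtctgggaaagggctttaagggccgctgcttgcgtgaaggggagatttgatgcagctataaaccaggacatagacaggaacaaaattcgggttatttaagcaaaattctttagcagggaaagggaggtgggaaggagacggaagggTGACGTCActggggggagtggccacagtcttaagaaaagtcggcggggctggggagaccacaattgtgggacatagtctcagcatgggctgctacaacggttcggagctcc
Npc2: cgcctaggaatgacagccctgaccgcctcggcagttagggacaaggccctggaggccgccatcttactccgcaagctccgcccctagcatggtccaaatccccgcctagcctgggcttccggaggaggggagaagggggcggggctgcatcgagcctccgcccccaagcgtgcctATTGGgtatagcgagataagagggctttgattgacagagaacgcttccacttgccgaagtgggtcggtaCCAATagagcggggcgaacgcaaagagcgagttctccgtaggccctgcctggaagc
Lipa: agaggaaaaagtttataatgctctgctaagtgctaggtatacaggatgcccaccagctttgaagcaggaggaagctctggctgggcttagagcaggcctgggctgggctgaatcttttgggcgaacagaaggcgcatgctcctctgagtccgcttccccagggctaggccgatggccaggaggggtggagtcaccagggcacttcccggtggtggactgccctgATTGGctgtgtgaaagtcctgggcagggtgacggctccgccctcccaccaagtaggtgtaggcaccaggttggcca
The DR4 match began at position -67 from the Abca1 start, on the opposite strand, and 0.207% of the 32851 windows in the table held such a match. The cAMP response element began at position -61 from the Ch25h start, and 1.79% of windows held one. CCAAT boxes began at positions -75 and -6 from the Npc2 start and at -26 from the Lipa start, and 37.4% of windows held one. The E-box CACGTG was found in 7.15% of windows and the GC box GGGCGG in 35.7%, and the Abca1 window held both of them, with none of its matches overlapping another. Windows of 7 of the 10 members were searched, and windows on the chromosome of Npc1 were left out of this search of members. A match to these letters is a description of the sequence and not a binding site.

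Libraries held between 11400882 and 16962682 counts in genes. A pair of 15-week libraries stood apart from the rest of their groups, replicate 1 of high-fat stroke and replicate 3 of control-diet stroke. The summed level of 8 genes of activated phagocytes was 130 CPM in the high-fat library and 212 CPM in the control-diet one, against medians of 1366 CPM in 15-week high-fat stroke and 1022 CPM in 15-week control-diet stroke and a range of 79.9 to 104 CPM in the sham libraries. CPM are read counts scaled to the size of the library in genes, with TMM factors. Choroid plexus genes summed to 953 CPM in replicate 6 of 6-week high-fat stroke and to 275 CPM in replicate 2 of high-fat sham, while the median was 11.2 CPM in the first of these groups. Markers of excitatory cortical neurons were present in every library, with sums of 3120 to 5301 CPM.

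Levels differed widely between members. Per kilobase of exon, Apoe stood at 546 ± 47.9 CPM in 6-week high-fat stroke and at 508 ± 65.1 CPM in high-fat sham (SD, n = 6 and 3). In the same stroke group Npc2 followed at 18.6 ± 2.41, Abca1 at 11.8 ± 2.02, Abcg1 at 9.68 ± 1.01 and Lipa at 7.01 ± 1.38 CPM per kilobase. Lpl, at 2.05 ± 0.34, and Nr1h3, at 1.89 ± 0.26, were the lowest. Ch25h was the lowest of all in high-fat sham, at 0.43 ± 0.29 CPM per kilobase, and in high-fat stroke it stood at 6.03 ± 1.46. Over the 6 groups the mean CPM of Abca1, Ch25h, Soat1, Npc2 and Lipa was lower in each sham group than in each stroke group, and the step between the lowest stroke group and the higher sham group exceeded the larger of the 2 SDs. Within the 4 stroke groups, neighbours in the order did not differ by more than that SD for any of these 5 genes.

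**Figure D1:**
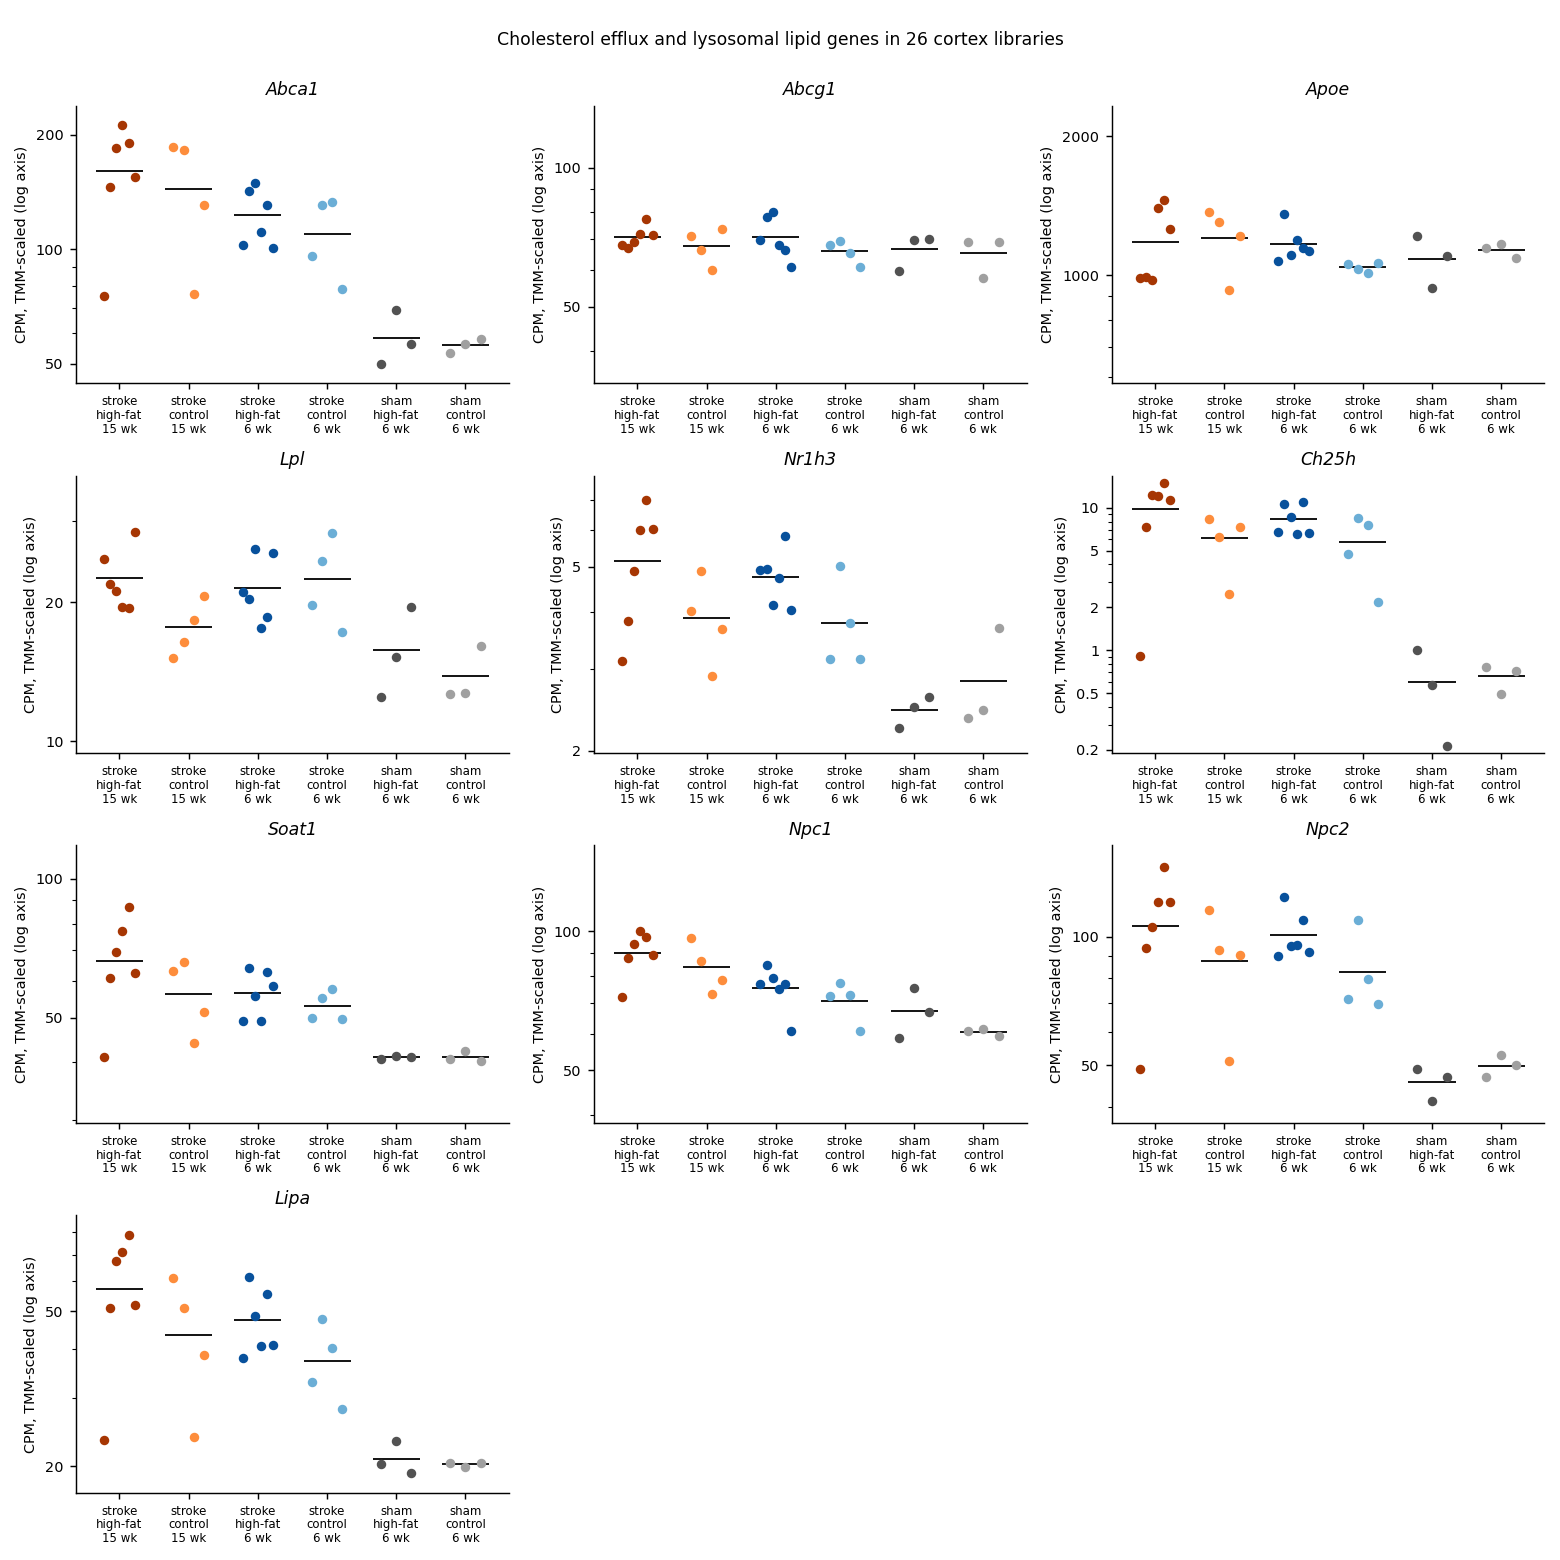
Level of each of the 10 genes (CPM, TMM-scaled, log axis) in every library, by group, with stroke groups left of sham and a line at each group mean. The low point in each 15-week stroke group for Abca1, Npc2, Lipa and Soat1 is the same library, and Abcg1 and Apoe lie at about the same level in all groups.

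The comparison of stroke with sham surgery at 6 weeks asked which of these genes change in injured cortex on each diet. On the high-fat diet 6 of the 10 members rose after stroke and 0 fell (edgeR's quasi-likelihood test, adjusted p under 0.05 over all genes tested), where 14.2% of all genes tested rose, 8.85% fell and 23.1% changed. Those that rose were Abca1, Nr1h3, Ch25h, Soat1, Npc2 and Lipa, from 1.38-fold for Soat1 to 13.9-fold for Ch25h. On the control diet 3 members rose, Abca1, Ch25h and Lpl, and 0 fell, where 5.1% of all genes rose, 2.57% fell and 7.68% changed. The members' median log2 fold change was 0.71 with high-fat feeding, beside -0.02 for all genes tested, and 0.56 with control feeding, beside 0.00. In bulk tissue a change in the number of cells of a type and a change in RNA per cell cannot be told apart.

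Abca1, the transporter that loads cholesterol onto lipid-poor apolipoproteins, had a lowest, median and highest level of 101, 121 and 149 CPM in high-fat stroke, against 49.9, 69.3 and 56.3 CPM in the 3 high-fat sham libraries. In control-diet stroke it had 95.9, 131, 133 and 78.4 CPM, against 53.4, 56.2 and 57.9 CPM in control-diet sham. Every stroke library lay above every sham library on its diet. The log2 fold change was 1.07 ± 0.28 on the high-fat diet (SE, adjusted p = 0.00913) and 0.97 ± 0.30 on the control diet (adjusted p = 0.0482). The high-fat call was lost without replicate 1 of high-fat sham (adjusted p = 0.0533). The control-diet call sat at the threshold and was lost in 26 of 35 alternatives, among them without the choroid plexus-rich pair (adjusted p = 0.0647). Among the 26 fits that leave out a library it was kept in 4, without replicate 4 of 6-week control-diet stroke, replicate 1 of 15-week high-fat stroke, and replicates 1 and 3 of 15-week control-diet stroke, and the adjusted p over all its alternatives ran from 0.00223 to 0.156.

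Abcg1, which exports cholesterol to mature lipoprotein particles, passed the test on neither diet. It had 60.9, 68.9 and 80.4 CPM (lowest, median and highest) in high-fat stroke, against 59.9, 69.9 and 70.1 CPM in high-fat sham. Control-diet stroke libraries had 68, 69.5, 65.4 and 60.9 CPM, against 69.0, 57.8 and 69.1 CPM in control-diet sham. The groups overlapped on both diets, with log2 fold changes of 0.09 ± 0.08 on the high-fat diet (SE, adjusted p = 0.498) and 0.01 ± 0.09 on the control diet (adjusted p = 0.949), a value whose sign depended on the setting.

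Apoe, the apolipoprotein that accepts the exported cholesterol, was the most abundant member and also passed in neither comparison. High-fat stroke libraries had 1072, 1137 and 1360 CPM (lowest, median and highest), against 1216, 939 and 1101 CPM in high-fat sham, and the groups overlapped. The log2 fold change there was 0.10 ± 0.13 (SE, adjusted p = 0.589). In control-diet stroke Apoe had 1056, 1029, 1011 and 1061 CPM, against 1146, 1166 and 1090 CPM in control-diet sham. All 4 control-diet stroke libraries lay below the 3 sham libraries, as they did for 11.6% of all genes, with a log2 fold change of -0.13 ± 0.14 (adjusted p = 0.631).

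Lpl, the lipase that frees fatty acids from lipoproteins at the cell surface, had 17.6, 20.6 and 26.1 CPM (lowest, median and highest) in high-fat stroke, against 12.5, 15.2 and 19.5 CPM in high-fat sham. Control-diet stroke libraries had 19.8, 24.6, 28.3 and 17.2 CPM, against 12.7, 12.7 and 16.1 CPM in control-diet sham. High-fat stroke and sham libraries overlapped, and those of the control diet were separate. The log2 fold change was 0.45 ± 0.17 on the high-fat diet (SE, adjusted p = 0.0527) and 0.70 ± 0.18 on the control diet (adjusted p = 0.0204). The control-diet call was lost without replicate 2 or 3 of control-diet stroke or replicate 1 or 2 of control-diet sham (adjusted p of 0.0729, 0.0743, 0.104 and 0.0903). On the high-fat diet the adjusted p lay just above the threshold and fell below it in 13 of the 26 fits that leave out a library, lowest without replicate 3 of high-fat sham (0.0254). The others of these 13 libraries were replicates 4 and 5 of 6-week high-fat stroke, 2, 3 and 4 of 6-week control-diet stroke, 1, 4 and 6 of 15-week high-fat stroke, 1, 3 and 4 of 15-week control-diet stroke, and 3 of control-diet sham.

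Nr1h3, which encodes the oxysterol-activated liver X receptor alpha, was measured by only 31 to 110 counts per library. It had 4.03, 4.82 and 5.84 CPM (lowest, median and highest) in high-fat stroke, against 2.23, 2.48 and 2.62 CPM in high-fat sham. These groups did not overlap, and the log2 fold change was 0.96 ± 0.23 (SE, adjusted p = 0.00491). In control-diet stroke it had 3.17, 5.03, 3.79 and 3.16 CPM, against 2.35, 2.45 and 3.69 CPM in control-diet sham. The control-diet groups overlapped through 1 high sham library, and the log2 fold change was 0.42 ± 0.25 (adjusted p = 0.322).

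Ch25h, the enzyme that makes the oxysterol 25-hydroxycholesterol in macrophages and microglia, showed the largest fold change of the 10 genes on both diets. It had 6.57, 7.68 and 11 CPM (lowest, median and highest) in high-fat stroke, against 1.01, 0.567 and 0.212 CPM in high-fat sham. Control-diet stroke libraries had 4.71, 8.47, 7.57 and 2.17 CPM, against 0.761, 0.490 and 0.712 CPM in control-diet sham. The lowest stroke library on each diet was above every sham library. The rise was 13.9-fold on the high-fat diet (log2 3.80 ± 0.70, SE, adjusted p = 0.000757) and 8.61-fold on the control diet (log2 3.11 ± 0.71, adjusted p = 0.0126). The size of these folds rests on 3 to 14 counts per library in high-fat sham and 7 to 11 in control-diet sham. The control-diet call was lost without any 1 of the control-diet sham replicates 1, 2 and 3 (adjusted p of 0.0589, 0.0678 and 0.0547), while the high-fat call was kept in all 35 alternatives. A transcript on the opposite strand, Gm26902, overlaps 11.5% of the Ch25h exon and had 274 counts in all libraries together, beside 2339 for Ch25h.

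Soat1, which stores cholesterol as an ester, also rose on the high-fat diet. High-fat stroke libraries had 49.2, 57.3 and 64 CPM (lowest, median and highest), against 40.6, 41.3 and 41.1 CPM in high-fat sham. In control-diet stroke it had 49.9, 55.1, 57.7 and 49.6 CPM, against 40.6, 42.5 and 40.3 CPM in control-diet sham. The 6 sham libraries lay between 40.3 and 42.5 CPM, below all 6-week stroke libraries. The log2 fold change was 0.46 ± 0.15 on the high-fat diet (SE, adjusted p = 0.0322) and 0.37 ± 0.17 on the control diet (adjusted p = 0.178). The high-fat call was lost without any 1 of replicates 2, 3 and 5 of high-fat stroke (adjusted p of 0.0788, 0.0565 and 0.0708) or of replicates 1, 2 and 3 of high-fat sham (0.103, 0.114 and 0.0878), and without the choroid plexus-rich pair (0.14). On the control diet Soat1 passed in voom (adjusted p = 0.0273), with only the groups compared (0.00464) and without the low 15-week pair (0.0408).

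Npc2, the soluble lysosomal carrier of free cholesterol, rose on the high-fat diet. It had 90.2, 95.5 and 124 CPM (lowest, median and highest) in high-fat stroke, against 49.1, 41.2 and 47 CPM in high-fat sham, a log2 fold change of 1.15 ± 0.25 (SE, adjusted p = 0.00286). In control-diet stroke it had 71.5, 110, 79.5 and 69.6 CPM, against 46.9, 52.9 and 50.03 CPM in control-diet sham. Both diets kept stroke and sham libraries apart, but the log2 fold change on the control diet, 0.73 ± 0.26, had an adjusted p of 0.0932. It passed without replicate 1 of 15-week high-fat stroke (0.0236), a library of neither group compared, and without the low 15-week pair (0.00363). It also passed in DESeq2 (0.0407), in voom (0.00618) and with only the groups compared (0.0283).

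Npc1, the membrane partner of Npc2, passed on neither diet in the main fit. In voom with quality weights it passed on the high-fat diet (log2 fold change 0.20, adjusted p = 0.0399). High-fat stroke libraries had 60.7, 76.9 and 84.6 CPM (lowest, median and highest), against 58.9, 75.5 and 66.9 CPM in high-fat sham. Control-diet stroke libraries had 72.5, 77.4, 72.7 and 60.7 CPM, against 60.7, 61.5 and 59.3 CPM in control-diet sham. The groups overlapped on both diets, with log2 fold changes of 0.17 ± 0.11 on the high-fat diet (SE, adjusted p = 0.252) and 0.23 ± 0.11 on the control diet (adjusted p = 0.233). The protein-coding gene Rmc1 lies on the opposite strand over 4.52% of the Npc1 exons, and the sources used here do not say whether counting used strand.

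Lipa, the acid lipase that frees cholesterol from its esters, had 37.9, 44.8 and 61.3 CPM (lowest, median and highest) in high-fat stroke, against 20.2, 23.2 and 19.2 CPM in high-fat sham. The log2 fold change was 1.19 ± 0.30 (SE, adjusted p = 0.00755). In control-diet stroke it had 32.8, 47.8, 40.2 and 28.0 CPM, against 20.3, 19.9 and 20.4 CPM in control-diet sham. Stroke and sham libraries were separate on both diets, and the control-diet log2 fold change of 0.88 ± 0.32 had an adjusted p of 0.0928, which became 0.0271 without replicate 1 of 15-week high-fat stroke and 0.00812 without the low 15-week pair. It was 0.0337 in DESeq2, 0.0118 in voom and 0.00983 with only the groups compared.

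**Figure D2:**
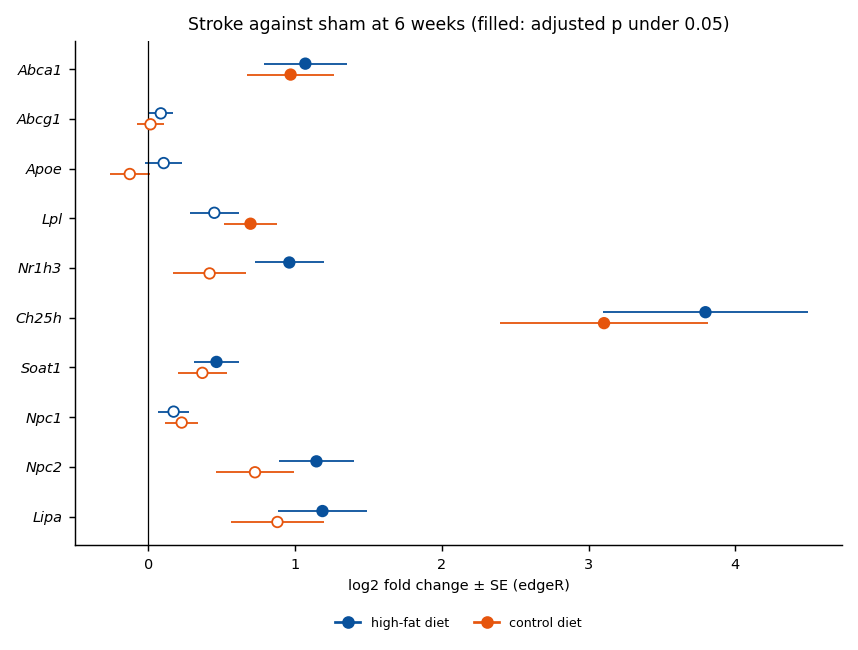
Log2 fold change of stroke over sham at 6 weeks with its SE, for each of the 10 genes on the high-fat diet (blue) and the control diet (orange), with filled points where the edgeR adjusted p is under 0.05. Ch25h stands at 3.80 and 3.11, while Abcg1, Apoe and Npc1 lie within 0.25 of 0 on both diets.

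By separation of libraries alone, 6 members were higher in every stroke library than in every sham library on the high-fat diet, as were 15.8% of all genes, and 6 on the control diet, as were 14.9%. The high-fat set held Nr1h3 and not Lpl, and the control-diet set held Lpl and not Nr1h3. Both held Abca1, Ch25h, Soat1, Npc2 and Lipa. Whether the response to stroke differed between the diets was tested as an interaction, and 0 of the 10 members passed (background 0%, with 0 of all genes called and 914 at an unadjusted p under 0.05; 0 members in DESeq2 and in voom, and 0 members at an unadjusted p under 0.05). The difference of log2 fold changes, high-fat minus control diet, was 0.54 ± 0.34 for Nr1h3 (SE, adjusted p = 0.832), 0.42 ± 0.36 for Npc2, 0.69 ± 1.08 for Ch25h and -0.25 ± 0.24 for Lpl. The diets differ in the number of members called, but no difference between their responses passed the test, and the high-fat arm held 6 stroke libraries where the control-diet arm held 4.

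The fragments that fell outside genes moved with surgery. Their share of placed fragments was 29.2% to 32.4% in high-fat stroke and 34.1% to 37.6% in high-fat sham, and 25.6% to 31.6% in control-diet stroke and 32.9% to 35.5% in control-diet sham, so that the groups did not overlap on either diet. With this share in the fit, 1 member passed on the high-fat diet, Ch25h, with a log2 fold change of 3.51 ± 0.77 (SE, adjusted p = 0.0097). Abca1, Nr1h3, Npc2, Lipa and Soat1 then had 0.92, 0.66, 0.86, 0.95 and 0.32. Lpl and Ch25h passed on the control diet. How many of all genes passed with this share in the fit is not given here, so the loss of calls is not set against it. Surgery and this share cannot be told apart in these groups.

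Markers of phagocytes moved with the same comparison. All 8 microglia markers rose after stroke on each diet, and their sum ran from 399 to 540 CPM in high-fat stroke and from 186 to 214 CPM in high-fat sham. Of 10 monocyte and macrophage markers, 9 were called with high-fat and 5 with control feeding, with sums of 225 to 561 CPM in high-fat stroke and 57 to 68.9 CPM in high-fat sham, where Ly6c2 was at 0. Activated phagocyte markers were called for 8 of 8 genes with high-fat and 7 of 8 with control feeding, with sums of 581 to 1357 CPM in high-fat stroke and 79.9 to 95.9 CPM in high-fat sham. On the control diet the activated phagocyte sum was 240 to 973 CPM in stroke and 90.8 to 104 CPM in sham. The part of these cells in the rise of Abca1, Nr1h3, Ch25h, Soat1, Npc2 and Lipa was not tested.

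The other genes of the pathway were taken from 5 lists. Of all genes tested, 14.2% rose and 8.85% fell on the high-fat diet, and 5.1% rose and 2.57% fell on the control diet. Of the lysosomal lipid and membrane genes, 16 of 30 tested were higher and 0 lower on the high-fat diet and 4 higher and 0 lower on the control diet, and their median log2 fold change was 0.38 for high-fat and 0.16 for control-diet mice. The lysosomal protease Ctsd averaged 1448 ± 256 CPM in high-fat stroke and 355 ± 27.7 CPM in high-fat sham (SD, n = 6 and 3), and the protease Ctsl 206 ± 27.5 CPM in high-fat stroke and 78.0 ± 7.77 CPM in high-fat sham. Their log2 fold changes were 2.03 ± 0.41 for Ctsd (SE, adjusted p = 0.00143) and 1.40 ± 0.28 for Ctsl (adjusted p = 0.00136), beside 1.19 for Lipa and 1.15 for Npc2 on the same diet. On the control diet Ctsd was called (1.44 ± 0.41, edgeR adjusted p = 0.036) and Ctsl was not (0.90 ± 0.29, 0.0576).

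Receptors for lipoproteins and lipid were called for 5 genes higher and 1 lower of 13 tested on the high-fat diet, and 5 higher and 0 lower on the control diet, with medians of 0.17 and 0.23. Trem2, a microglial receptor for lipids and apolipoproteins, averaged 49.4 ± 8.22 CPM in high-fat stroke and 10.8 ± 1.2 CPM in high-fat sham (log2 fold change 2.2 ± 0.37, adjusted p = 0.000498). The scavenger receptor Msr1 averaged 21.5 ± 7.65 CPM in high-fat stroke and 0.474 ± 0.161 CPM in high-fat sham, and the lysosomal glycoprotein Cd68 40.2 ± 10.2 CPM in high-fat stroke and 4.16 ± 1.36 CPM in high-fat sham. Msr1 and Cd68 also stand in the activated phagocyte list. Sort1, the sorting receptor sortilin, fell by 0.33 ± 0.09 on the log2 scale on the high-fat diet (adjusted p = 0.0108) and had a log2 fold change of -0.23 ± 0.10 on the control diet (adjusted p = 0.16).

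Among other efflux and lipoprotein genes, 9 of 21 tested were higher and 3 lower on the high-fat diet, and 2 higher and 0 lower on the control diet, with medians of 0.19 and 0.11. Apoc2, the cofactor of lipoprotein lipase, averaged 4.72 ± 1.85 CPM in high-fat stroke and was at 0 counts in all 3 high-fat sham libraries, which makes it at least 22.1-fold higher against a floor of 3 counts per library. Lcat, which esterifies cholesterol on lipoproteins, rose by 0.60 ± 0.13 (log2, adjusted p = 0.0028) on the high-fat diet and by 0.59 ± 0.14 (adjusted p = 0.0156) on the control diet. The lipid-binding lipocalin Apod averaged 411 ± 60.9 CPM in high-fat stroke and 132 ± 28.3 CPM in high-fat sham. It was not called on the control diet (log2 fold change 1.17 ± 0.39, edgeR adjusted p = 0.0646). Genes that fell on the high-fat diet were the co-repressor Ncor1 (log2 fold change -0.27 ± 0.07), the transporter Abca5 (-0.29 ± 0.08) and Sel1l, an endoplasmic reticulum protein needed for lipase maturation (-0.22 ± 0.06), and none of these 3 was called on the control diet.

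Cholesterol ester and lipid droplet genes were called for 2 higher and 1 lower of 13 tested on the high-fat diet, and 1 higher and 2 lower on the control diet, with medians of 0.10 and -0.10. Plin2, a coat protein of lipid droplets, averaged 78.1 ± 29.4 CPM in high-fat stroke and 5.37 ± 0.802 CPM in high-fat sham, a log2 fold change of 3.86 ± 0.73 (SE, adjusted p = 0.000975). Plin4, a related coat protein, averaged 6.75 ± 1.02 CPM in high-fat stroke and 16.9 ± 10.7 CPM in high-fat sham, and it fell by 1.32 ± 0.33 on the log2 scale (adjusted p = 0.0063). Lipe, a neutral lipase of droplets, rose by 0.57 ± 0.16 on the log2 scale in high-fat mice (adjusted p = 0.0103). On the control diet Plin2 was called higher (2.55 ± 0.71) and Plin4 lower (-2.11 ± 0.38). Lipe was not called there (0.18 ± 0.17, edgeR adjusted p = 0.58). Of 23 oxysterol and sterol carrier genes, 3 were higher and 1 lower on the high-fat diet and 0 higher and 1 lower on the control diet, with medians of 0.05 on each. For genes higher on the high-fat diet, this list and the ester and droplet list were near the 14.2% of all genes. Gpr183, the receptor for an oxysterol made from the product of Ch25h, averaged 4.09 ± 0.774 CPM in high-fat stroke and 1.59 ± 0.194 CPM in high-fat sham (log2 fold change 1.35 ± 0.32, adjusted p = 0.00433). Hsd3b7, an enzyme that removes such oxysterols, had a log2 fold change of 1.10 ± 0.33 and the sterol-binding protein Tspo one of 2.60 ± 0.49 on that diet. On the control diet Gpr183, Hsd3b7 and Tspo were not called (edgeR adjusted p of 0.0576, 0.657 and 0.0716). Osbpl1a, of the oxysterol-binding protein family, was lower on both diets, with log2 fold changes of -0.42 ± 0.12 with high-fat and -0.48 ± 0.14 with control feeding.

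**Figure D3:**
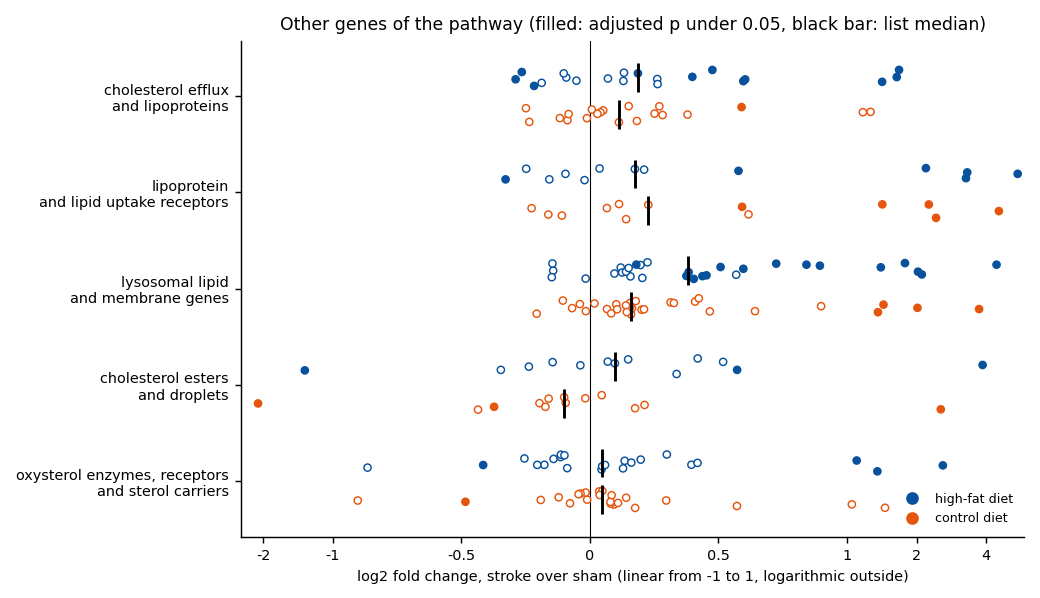
Log2 fold change of stroke over sham for the tested genes of 5 pathway lists, each point a gene, blue for the high-fat diet and orange for the control diet, filled where the edgeR adjusted p is under 0.05, with a black bar at the list median; Apoc2 is not drawn because its high-fat sham libraries are at 0. The axis is linear from -1 to 1 and logarithmic outside; in the lysosomal list 16 high-fat points are filled, and all of them lie right of 0.

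The SD of Abca1 at 15 weeks was 48.3 CPM in high-fat and 51.9 CPM in control-diet stroke, and 20.9 and 26.7 CPM in the high-fat and control-diet stroke groups at 6 weeks. The pair of libraries low in phagocyte markers was at the bottom of its groups for Abca1, Npc2 and Lipa. In that pair, given as the high-fat and then the control-diet library, Abca1 stood at 75.2 and 76.0 CPM, Npc2 at 49 and 51.1 CPM and Lipa at 23.3 and 23.7 CPM. The highest 6-week sham library of either diet had 69.3 CPM of Abca1, 52.9 CPM of Npc2 and 23.2 CPM of Lipa. The other 15-week libraries had 131 to 212 CPM of Abca1, 90.8 to 146 CPM of Npc2 and 38.6 to 78.6 CPM of Lipa. Ch25h was at 0.905 CPM in the low high-fat library and 2.49 CPM in the low control-diet library, and between 6.25 and 14.9 CPM in the rest. Lpl did not share this pattern, with 24.8 CPM in the low high-fat library and 18.3 CPM in the low control-diet library, both above the median of their group. The microglia sum was 246 CPM in the low high-fat library and 253 CPM in the low control-diet one, and the part of cell makeup in these levels was not tested.

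**Figure D4:**
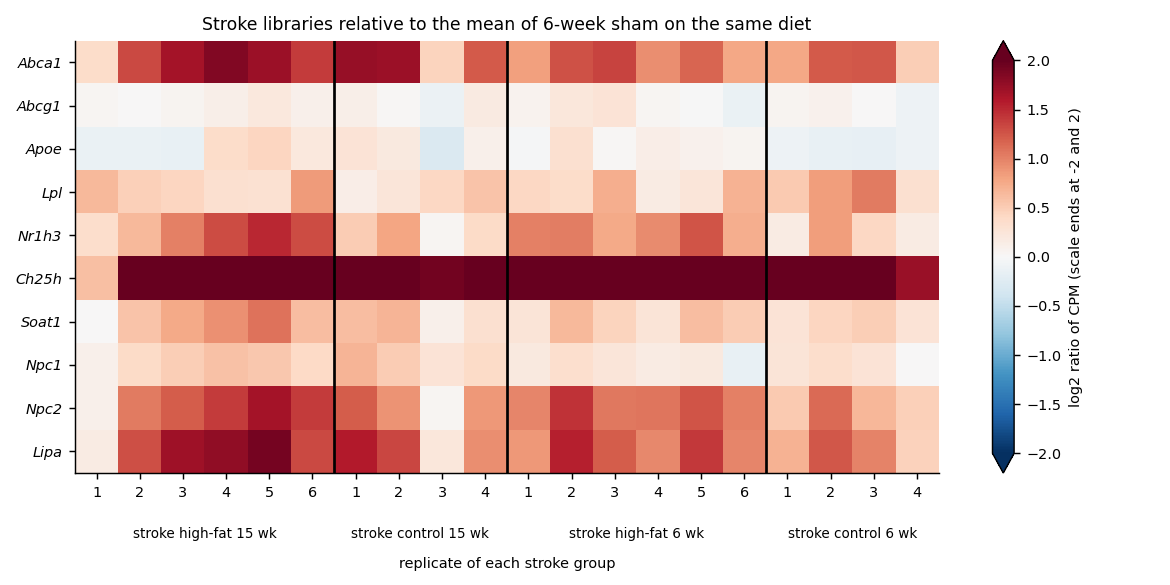
Log2 ratio of each stroke library's CPM to the mean of 6-week sham on the same diet, with the 10 genes in rows and the replicates of the 4 stroke groups in columns; the colour scale ends at -2 and 2, so Ch25h is mostly beyond its end. Replicate 1 of 15-week high-fat stroke and replicate 3 of 15-week control-diet stroke are pale for Abca1, Soat1, Npc2 and Lipa. The 15-week libraries have no 15-week sham to be set against.

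The comparison of the diets within stroke asked whether the high-fat diet changes these genes in injured cortex. At 15 weeks no member passed the test, and none did at 6 weeks or after sham surgery. In 15-week stroke 0 of 10 members were called (0% of all genes; edgeR called 0 of all genes and 1299 had an unadjusted p under 0.05; 0 members in DESeq2 and in voom). Estimates were positive for 9 of 10 members, beside 50.4% of all genes. Most members vary together from library to library, so their signs are not separate observations, here or in 6-week stroke. Lpl had 19.4, 21.6 and 28.4 CPM (lowest, median and highest) in 15-week high-fat stroke, against 15.2, 16.4, 18.3 and 20.6 CPM in 15-week control-diet stroke. These groups overlapped, and the log2 fold change was 0.35 ± 0.15 (SE, adjusted p = 0.591), the only member at an unadjusted p under 0.05. Ch25h had 0.905, 11.8 and 14.9 CPM in 15-week high-fat stroke, against 8.31, 6.25, 2.49 and 7.34 CPM in 15-week control-diet stroke, a log2 fold change of 0.69 ± 0.45 (adjusted p = 0.702). Nr1h3, at 3.12, 5.46 and 6.97 CPM in 15-week high-fat stroke against 4.01, 4.90, 2.89 and 3.67 CPM in 15-week control-diet stroke, had 0.41 ± 0.20 (adjusted p = 0.632). Lipa had 0.39 ± 0.26 (adjusted p = 0.702). The remaining members had estimates between -0.03 and 0.27.

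In 6-week stroke 0 of 10 members were called for diet (0% of all genes; 0 of all genes and 1141 at an unadjusted p under 0.05; 0 members in DESeq2 and in voom), with 9 of 10 estimates positive, beside 48.5% of all genes. Ch25h had a log2 fold change, high-fat over control diet, of 0.55 ± 0.45 (SE, adjusted p = 0.71), Lipa of 0.35 ± 0.26 (0.692), Nr1h3 of 0.33 ± 0.20 (0.667) and Npc2 of 0.29 ± 0.22 (0.696). Apoe was the only member whose groups did not overlap, with its lowest high-fat stroke library at 1072 CPM and its highest control-diet stroke library at 1061 CPM, as was so for 1.04% of all genes, and its log2 fold change was 0.17 ± 0.12 (adjusted p = 0.681). After sham surgery 0 members were called (0% of all genes; 0 of all genes and 782 at an unadjusted p under 0.05; 0 members in DESeq2 and in voom), and estimates ran from -0.21 ± 0.27 for Nr1h3 to 0.19 ± 0.19 for Lpl, with 5 of 10 positive. The sign of these last estimates turned without replicate 3 of control-diet sham for Nr1h3 (0.042) and without replicate 3 of high-fat sham for Lpl (-0.00025). With these SEs, differences of the size of the Ch25h, Nr1h3 and Lipa estimates could not be told from 0.

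**Figure D5:**
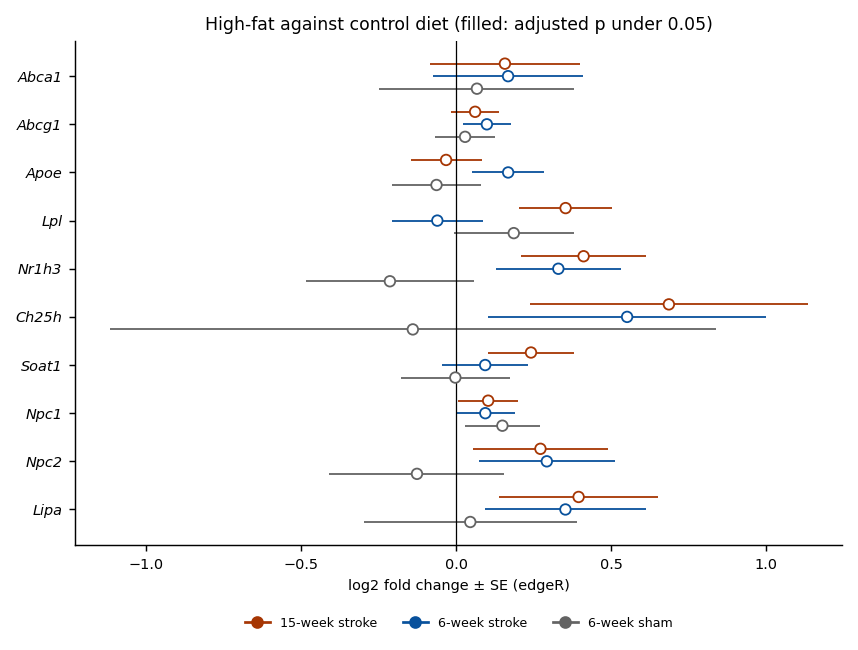
Log2 fold change of the high-fat over the control diet with its SE, for each of the 10 genes in 15-week stroke (brown), 6-week stroke (blue) and 6-week sham (grey). No point is filled, since none had an edgeR adjusted p under 0.05, and Ch25h, Nr1h3 and Lipa lie right of 0 in both stroke comparisons.

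Time on the diet was compared within stroke. It cannot be told apart from age or from handling of the arms at separate times. The share of placed fragments outside genes also reached higher at 15 weeks. It was up to 43.1% in high-fat and 37.9% in control-diet stroke, against 32.4% and 31.6% at 6 weeks. On the high-fat diet 0 of 10 members were called between 15 and 6 weeks, where 2.35% of all genes were called and 0.735% were higher at 15 weeks, with 1 member at an unadjusted p under 0.05, and 0 members passed in DESeq2 and 3 in voom. All 10 estimates were positive, beside 51.8% of all genes, but most members vary together, so these signs are not separate observations. Npc1 had 72, 91.3 and 100.2 CPM (lowest, median and highest) in 15-week high-fat stroke, against 60.7, 76.9 and 84.6 CPM in 6-week high-fat stroke. These ranges overlapped, and the log2 fold change was 0.25 ± 0.09 (SE, adjusted p = 0.118). Abca1 had 75.2, 170 and 212 CPM in 15-week high-fat stroke, against 101, 121 and 149 CPM in 6-week high-fat stroke, a log2 fold change of 0.39 ± 0.22 (adjusted p = 0.362). Soat1 had a log2 fold change of 0.23 ± 0.12 (adjusted p = 0.332) and Lipa one of 0.27 ± 0.23 (adjusted p = 0.564).

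Without the pair of 15-week libraries low in phagocyte markers, 3 members passed for 15 against 6 weeks on the high-fat diet, Npc1 at 0.32 (adjusted p = 0.016), Abca1 at 0.54 (adjusted p = 0.0274) and Soat1 at 0.35 (adjusted p = 0.019). The same 3 passed in voom with quality weights (0.28, 0.51 and 0.33). Leaving out replicate 1 of 15-week high-fat stroke alone gave Npc1 (0.30, adjusted p = 0.0229) and Soat1 (0.33, adjusted p = 0.0361). That library was the lowest of its group for Npc1 (72 CPM), Abca1 (75.2 CPM) and Soat1 (41.2 CPM). Leaving it out therefore raises the 15-week mean of these genes, so these fits are not separate evidence of a change with time. The share of all genes called in these fits is not given here, and the shares given above are those of the main fit. The counts of members called for the diet at 15 weeks and for time on the control diet remained 0 without that pair. On the control diet 0 of 10 members were called between 15 and 6 weeks, where 0.564% of all genes were called and 0.239% were higher, and 0 members passed in DESeq2 or voom. Npc1 had 0.24 ± 0.11 (SE, adjusted p = 0.249), Abca1 0.40 ± 0.27 (adjusted p = 0.464) and Lpl -0.35 ± 0.16 (adjusted p = 0.286), and 2 members had an unadjusted p under 0.05. Lpl was thus at 15.2 to 20.6 CPM in 15-week control-diet stroke and 17.2 to 28.3 CPM in 6-week control-diet stroke. The interaction of diet and weeks called 0 of 10 members (0% of all genes; 0 members at an unadjusted p under 0.05, in DESeq2 or in voom), with 0.41 ± 0.21 for Lpl (adjusted p = 0.993).

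Members also varied together from library to library within groups. After the mean of each group was taken off, log2 CPM of Abca1 and Lipa had a Pearson r of 0.95 over the 26 libraries (Spearman's rho 0.92), and 0.88 over the 24 libraries left without the low 15-week pair. Among 7 members grouped after these values were seen (Abca1, Npc2, Lipa, Soat1, Ch25h, Nr1h3 and Npc1), the 21 pairs had r of 0.61 to 0.95 with a median of 0.81, and 0.39 to 0.88 with a median of 0.56 without that pair of libraries. Lpl had r between -0.33 and 0.23 against the other 9 members. Abcg1 and Apoe also had pairs below the range of the 7, such as 0.28 for Abcg1 with Soat1 and 0.39 for Apoe with Npc1. Other pairs of theirs lay inside it, such as 0.64 for Abcg1 with Npc1 and 0.73 for Apoe with Npc2. The genes most like Npc2 were the lysosomal protease Ctss (r = 0.99), Trem2 (0.98) and Aldh3b1 (0.98). Those most like Abca1 were the transporter Abcc3 (0.97), Il6st (0.96) and Iqgap1 (0.96), and those most like Lipa were Tgfbr2, Igfbp7 and Tent5c (each 0.98). Ch25h was closest to Rab7b (0.97), Adcy7 (0.97) and Hk3 (0.96), and Soat1 to Mfsd1, Mob1a and Atp6v0e (each 0.95).

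The other members had weaker partners. Npc1 was closest to Slc39a14 (0.91), Myo1e (0.90) and Syt15 (0.90), Abcg1 to Slc6a6 (0.89), Pcnx3 (0.81) and Tubgcp6 (0.81), and Nr1h3 to Plekhf2 (0.86), Crlf3 (0.84) and Ryk (0.83). Apoe was closest to the lysosomal genes Lamp1 (0.84) and Gm2a (0.83) and the droplet gene Plin3 (0.84). Among the genes closest to Lpl were Cacna1h (0.84) and Cacng4 (0.79). These values describe the same 26 libraries, which share the injury, the tissue cut and the scaling.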

How the data were processed

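Per the labels' protocols, frozen cortex was taken into Trizol for total RNA, from which stranded, paired-end libraries were made. Trim Galore, STAR, HTSeq and featureCounts are listed as tools and mm9 as the build in the submitters' processing notes. Tool versions, the strand setting and the annotation are not given in the sources used here. What the authors deposited is a table of raw counts for each library, whole numbers by Ensembl gene, and the values show no normalization. The 5 summary entries of each table held 45.69% to 58.16% of its counts and stayed out of library sizes and tests. Names and exon lengths came from GENCODE M21, which matched 37607 of 39179 identifiers. No coordinates are taken from that annotation or set against the data, and the promoter windows are in the RefSeq build named with them, not mm9.

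The members, lists and alternatives were chosen with earlier results of these data known. Genes passed filterByExpr in edgeR 4.0.16 at a minimum count of 10 (R 4.3.3). With TMM scaling, a robust quasi-likelihood model with a mean for each of the 6 groups was fitted to all 26 libraries, and p-values of the 9 contrasts were adjusted by Benjamini-Hochberg over all 16325 genes (threshold 0.05). The fit was tested on simulated data. SEs are the absolute log2 fold change over the root of the F statistic. Genes named beside the members are up to 3 per list and direction with the smallest p among those called on the high-fat diet, and the 3 genes most like each member by Pearson r of log2 CPM (prior count 2) after group means were taken off. A result for 2 of these genes is not reported here. Chi-square per degree of freedom between libraries of the same group was 3.34 to 70.2, above that of counting noise, so each was counted as its own sample. With members near 0.5 CPM, as Ch25h in sham, a level rests on about 10 counts, and intervals cover the spread between libraries only.

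The alternatives were RLE size factors, DESeq2 1.42.0, voom with quality weights (limma 3.58.1), no filter, a minimum count of 50, only the groups compared, a covariate for fragments outside genes (their share per library), leaving out the choroid plexus-rich pair, leaving out the low 15-week pair, and leaving out each library. In 40 sets of 4 or 6 libraries (a member in a stroke group), no library lay apart from the others by Dixon's criterion. This check took 1 member at a time and did not cover the marker sums given for the low 15-week pair.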

Additional observations from a re-analysis of the deposited data

How the results depend on the processing

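No paired analysis was possible because the labels give no replicate numbers that the groups share. Of the 9 counts of members called, those for surgery by diet, for diet after stroke (at 15 and at 6 weeks) or sham surgery, for weeks on the control diet and for diet by weeks stayed at 0 in all 35 alternatives. The count for stroke against sham on the high-fat diet, 6, became 1 with the covariate for fragments outside genes and 4 to 7 without single libraries. On the control diet the count of 3 became 2, with Abca1 lost, under RLE, with no filter, with the covariate and without the choroid plexus-rich pair (adjusted p of 0.0524, 0.108, 0.145 and 0.0647). It became 5 in DESeq2 and 6 in voom, in the fit of only the groups compared and without the 2 low 15-week libraries, and it ran from 0 to 5 without single libraries (0 without control-diet sham replicate 1 or 2, 1 without sham replicate 3 or stroke replicate 2 or 3, and 5 without replicate 1 of 15-week high-fat stroke). For 15 against 6 weeks on the high-fat diet the count of 0 became 3 in voom and 3 without the 2 low libraries, and 0 to 2 without single libraries. The share of all genes called in each of these fits is not given here, so the counts of members are not set against it. The cause of these changes was not tested.

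Estimates near 0 changed sign. Apoe on the high-fat diet became -0.054 with the covariate. Abcg1 on the control diet became -0.0033 with no filter and -0.014 with the covariate, and -0.079 to 0.056 without single libraries. After sham surgery, the diet estimate ran without single libraries from -0.00025 to 0.35 for Lpl and from -0.33 to 0.042 for Nr1h3. Counts limit the precision of the Ch25h level in high-fat sham (3 to 14 counts per library) and of Nr1h3 (31 to 110).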

Other observations

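Markers of other cells in the cortex were compared between stroke and sham at 6 weeks. Of all genes tested, 14.2% were higher and 8.85% lower with high-fat feeding, and 5.1% higher and 2.57% lower with control feeding. Endothelial markers were called higher for 4 of 6 genes with high-fat and 0 with control feeding, and their sum was 177 to 242 CPM in high-fat stroke and 121 to 159 CPM in high-fat sham. The endothelial sum was 177 to 186 CPM in control-diet stroke and 137 to 155 CPM in control-diet sham. Pericyte and smooth muscle markers were called for 3 of 6 genes with high-fat and 1 with control feeding. Of 6 meningeal and fibroblast markers, 4 were higher with high-fat and 0 with control feeding, with sums of 89.3 to 246 CPM in high-fat stroke and 35.8 to 47.8 CPM in high-fat sham. Their median log2 fold change on the high-fat diet was 2.26, beside 1.01 for the microglia markers. All 5 oligodendrocyte precursor markers were called higher with high-fat and 0 with control feeding, with median log2 fold changes of 0.48 and 0.42. On the control diet the precursor sum was 168 to 195 CPM in stroke and 137 to 145 CPM in sham. Of 7 oligodendrocyte markers 1 was higher with high-fat and 0 with control feeding. Markers of astrocytes, the main source of Apoe in healthy brain, were mixed, with 3 of 8 higher and 2 lower on the high-fat diet and 2 higher and 1 lower on the control diet. Excitatory neuron markers were lower for 4 of 8 genes with high-fat and 0 with control feeding, with sums of 3582 to 4428 CPM in high-fat stroke and 4862 to 5301 CPM in high-fat sham. Their sum was 3742 to 4535 CPM in control-diet stroke and 4852 to 5168 CPM in control-diet sham. Counts of markers called do not show that the diets differ in response, since 0 of all genes passed the interaction of surgery and diet. The high-fat arm also held 6 stroke libraries and the control-diet arm 4.

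Neutrophil genes were scarce. Of 7 markers 3 passed the filter, 2 of which were higher with high-fat and 0 with control feeding, and Ly6g was at 0 in every library. The neutrophil sum was 12.5 to 18.9 CPM in high-fat stroke and 3.89 to 4.82 CPM in high-fat sham. Of 7 T and B cell markers 1 passed the filter and 0 were called. Blood cell genes were called higher for 5 of 5 tested genes on the high-fat diet, with sums of 163 to 308 CPM in stroke and 78.5 to 109 CPM in sham, and for 0 on the control diet. Of 6 tested choroid plexus genes 0 were called on either diet.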
